A study of Mus musculus with 6 samples.

Results

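Organic ion transporters and drug efflux pumps were taken as the protein-coding mouse genes of the families Slc22a, Slco, Slc47a, Abcb and Abcc, together with Abcg2. Of 62 such genes, 49 had at least 10 raw counts in 3 or more libraries and are described here, out of 54838 gene identifiers in the files. RNA was sequenced from glomeruli, the capillary tufts where the kidney filters blood, that were isolated from mice aged 3 weeks. The KO group held 3 mice with the genotype bPIX -/-, described by the submitters as a loss restricted to podocytes, and the CTRL group held 3 wild type mice. bPIX, encoded by Arhgef7, activates the GTPases Rac1 and Cdc42. The labels do not state the driver of the deletion, the way glomeruli were isolated or which alleles the wild type mice carried.

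Group names follow the sample labels, KO 146, 147 and 148 against CTRL 157, 162 and 163. The file deposited under each label is named for an animal of the other group, in all 6 cases. If the file names held and the labels did not, each difference below would change sign and keep its size. The targeted gene does not settle this, since Arhgef7 had 133, 89.6 and 85.9 CPM in KO 146, 147 and 148, against 91.9, 94.1 and 88.4 CPM in CTRL 157, 162 and 163. CPM are counts scaled to a common library size, with TMM factors. The 2 groups overlapped, with a log2 fold change of 0.17 (SE 0.17, edgeR adjusted p = 0.544), and a whole-gene count cannot isolate a deletion confined to 1 cell type.

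The proximal tubule of the kidney secretes drugs, toxins and metabolites in a relay. Carriers of the Slc22 family take organic anions and cations up from blood across the basolateral membrane, and proton exchangers of the Slc47 family and ATP-driven pumps of the Abcc, Abcb and Abcg2 type push them into urine across the apical membrane. Slco carriers move larger amphipathic anions, among them steroid conjugates and prostaglandins. Several relatives do other work, such as carnitine recovery, urate reabsorption or traffic across mitochondrial membranes.

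The labelled tissue was checked against fixed markers. Of 12 podocyte markers and 19 endothelial and mesangial markers, every one was detected in each library, so glomerular cells were present. Proximal tubule markers summed to more CPM still, over lists of unequal size and without scaling for length. Most of the transporters below are known from that segment and not from glomeruli. The summed level of 21 proximal tubule markers was 16530, 24350 and 26707 CPM in KO 146, 147 and 148, against 34146, 31230 and 31573 CPM in CTRL 157, 162 and 163. Podocyte markers summed to 8317, 3475 and 2297 CPM in the same KO libraries and to 1018 to 1223 CPM in CTRL. Endothelial and mesangial markers summed to 6933, 2922 and 1963 CPM in KO and to 992 to 1136 CPM in CTRL. KO 146 therefore stood apart from its group, with the highest glomerular and the lowest tubular markers. In bulk RNA, fewer cells of a type and less RNA per cell cannot be told apart. Gene counts totalled 39841396 to 51917945 per library. The 4 Y-linked genes summed to 121 to 142 CPM in KO and 125 to 138 CPM in CTRL, and Xist had at most 4 counts in any library. Singly, Uty was lower in all KO libraries (log2 fold change -0.27, edgeR adjusted p = 0.0928) and Ddx3y higher (0.18, edgeR adjusted p = 0.251). Kdm5d and Eif2s3y overlapped.

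Across the whole set, most transporters had lower values in KO libraries, yet none passed the test. The 49 members held 0.391%, 0.471% and 0.499% of gene counts in KO 146, 147 and 148, against 0.623%, 0.588% and 0.61% in CTRL 157, 162 and 163. All 49 passed the filter of the test over 17086 genes, in which edgeR called 1.01% of genes at an adjusted p below 0.05. It called 0 members higher and 0 lower, with 36 values below and 13 above 0 in log2. The median log2 fold change was -0.33 for members, -0.01 for all tested genes and -0.52 for the 21 proximal tubule markers. At an unadjusted p below 0.05, which 29.3% of all tested genes reached, 21 members (42.9%) were lower, against 11.8% of all tested genes, and 5 (10.2%) were higher, against 17.5%. In 25 members (51%) all KO libraries lay below all CTRL libraries, which held for 19.6% of all tested genes. The reverse held for 5 members (10.2%) and for 21.9% of all tested genes.

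The absence of calls depended on single libraries and on the tool. Without KO 146, edgeR called 17 members lower and 1 higher, where it called 6.62% of all genes lower and 10.5% higher. Without KO 148 it called 12 lower and 3 higher, where the shares for all genes were 5.4% and 12.9%, 18.3% in all. It called 0 members without KO 147 and without CTRL 157, 162 or 163, fits that called only 0.0115%, 0.0114%, 0.0171% and 0.0569% of all genes. DESeq2 called 16 members lower and 3 higher (5.65% and 11.7% of all genes), and limma-voom called 0 (0.72% of all genes). With no filter on low counts edgeR called 8 lower and 0 higher (1.31% and 1.41% of all genes, 2.72% in all). Slco1a6 was the only member called with size factors of the DESeq2 kind (0.427% of all genes lower), and Slc22a4 joined it with library totals (0.293% lower, 0.96% in all).

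**Figure D1:**
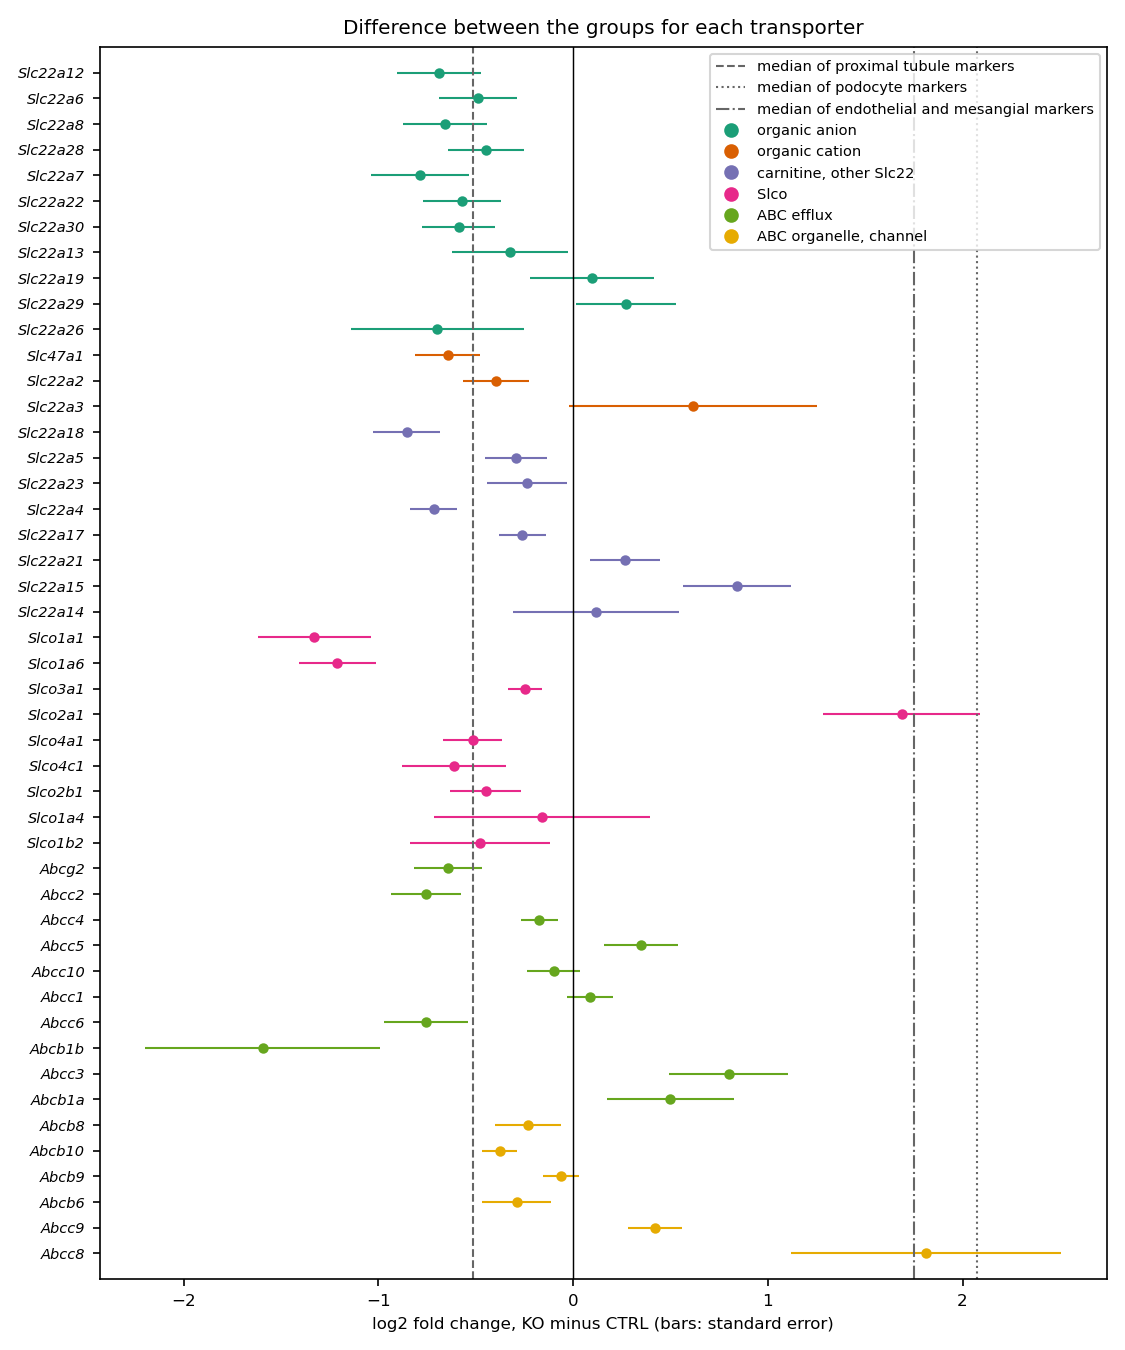
Log2 fold change, KO minus CTRL, for 47 transporters (points) with its standard error (bars), coloured by role and ordered by level per length within a role. Vertical lines give the median of proximal tubule markers (-0.52), endothelial and mesangial markers (1.75) and podocyte markers (2.07). Of the 47 points 34 lie below 0, while Slco2a1 and Abcc8 lie near the glomerular lines. Abcc8 had only 7 to 85 counts per library, overlapped between the groups, and was at 0.86 without KO 146.

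Levels of members are ranked here per exon length, as FPKM. Slc22a12 was the most abundant member, with a mean of 341 FPKM in KO and 550 FPKM in CTRL, followed by Slc22a6 with 172 FPKM in KO and 242 FPKM in CTRL. Slc22a18 had 117 FPKM in KO and 211 FPKM in CTRL. Other abundant members were Slc47a1 at 88.9 FPKM in KO and 139 in CTRL, Slc22a2 at 78.6 in KO and 103 in CTRL, and Slc22a8 at 58.2 in KO and 91.9 in CTRL. Among them are carriers of basolateral entry and of apical exit, for anions and for cations. At the other end, 4 members, Slc22a3, Slc22a14, Slco1a4 and Slco1b2, stayed under 1 CPM in every library.

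Among the organic anion carriers, 9 of 11 tested members lay on the negative side in log2, around a median of -0.57 with 0 calls. Slc22a12, the apical urate exchanger known in human as URAT1 (chromosome 19, 6535845 to 6543032, minus strand, GRCm38), had 534, 851 and 928 CPM in KO 146, 147 and 148, against 1322, 1163 and 1249 CPM in CTRL 157, 162 and 163. All KO values lay below all CTRL values, with KO 146 lowest. Its log2 fold change was -0.69 (SE 0.22, edgeR adjusted p = 0.101).

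Slc22a6 and Slc22a8, the basolateral exchangers OAT1 and OAT3 that take up drugs and uremic anions, lie next to each other on chromosome 19, 6203 bases apart on the plus strand. Slc22a6 (8618039 to 8628299) had 487, 759 and 811 CPM in KO 146, 147 and 148, against 996, 940 and 953 CPM in CTRL 157, 162 and 163. Slc22a8 (8591254 to 8611835) had 162, 223 and 298 CPM in the KO libraries in the same order, against 377, 347 and 353 CPM in CTRL. Neither gene overlapped between the groups, and KO 146 was lowest for both. Their log2 fold changes were -0.49 (SE 0.20) and -0.66 (SE 0.21), with edgeR adjusted p = 0.162 and 0.107. Without KO 146 the value of Slc22a6 was -0.30 (edgeR adjusted p = 0.0232).

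The other anion carriers were less even. Slc22a7, which encodes OAT2, had 50, 49.9 and 54.6 CPM in KO 146, 147 and 148, against 54.3, 108 and 104 CPM in CTRL 157, 162 and 163. CTRL 157 lay with the KO libraries here, at about the level of KO 148. The log2 fold change was -0.79 (SE 0.25, edgeR adjusted p = 0.104). Slc22a22, known in mouse as the prostaglandin carrier OAT-PG, had 36.9, 57.7 and 62.7 CPM in KO and 81.3, 69.5 and 82.5 CPM in CTRL, without overlap (-0.57, SE 0.20, edgeR adjusted p = 0.122). Without KO 146 its value was -0.38 (edgeR adjusted p = 0.0193).

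On chromosome 19, between 7673061 and 8405111, lay a run of 5 related carriers, Slc22a19, Slc22a26, Slc22a28, Slc22a29 and Slc22a30. Their close sequence matters, since reads that align to several places are missing from the counts. Slc22a28 had 74.4, 116 and 119 CPM in KO 146, 147 and 148, against 139, 125 and 158 CPM in CTRL 157, 162 and 163. Slc22a30 had 50.8, 81.3 and 83.4 CPM in KO, against 105, 108 and 112 CPM in CTRL. Both were without overlap, with log2 fold changes of -0.45 (SE 0.20) and -0.59 (SE 0.19), and -0.27 for Slc22a28 without KO 146. The other 3 of the run overlapped between the groups. Slc22a19, which encodes Oat5, had 24.2, 30.9 and 30.9 CPM in KO and 17.5, 21.4 and 41.5 CPM in CTRL. Its values spread more widely within CTRL than between the group means of 28.7 and 26.8 CPM in KO and CTRL. Slc22a26 had 2.56, 6.01 and 3.37 CPM in KO and 3.81, 5.49 and 9.96 CPM in CTRL. Slc22a29 had 4.96, 7.68 and 9.02 CPM in KO and 5.18, 5.33 and 7.39 CPM in CTRL. CTRL 163 was the highest CTRL library for all 5 genes of the run. Slc22a13 on chromosome 9, a urate and nicotinate exchanger, was also highest in CTRL 163, with 13.1, 11.9 and 15.6 CPM in KO and 10.2, 16.8 and 24.0 CPM in CTRL. It lies inside the annotated span of Slc22a14 on the same strand, so that their reads may not be separable.

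Among the 4 cation carriers, 3 lay on the negative side in log2, around a median of -0.44 with 0 calls. Slc22a2 encodes the basolateral uptake carrier OCT2, and Slc47a1 encodes MATE1, the apical proton exchanger that completes cation secretion. Slc22a2 (chromosome 17, 12584132 to 12628488, plus strand) had 151, 203 and 231 CPM in KO 146, 147 and 148, against 272, 231 and 267 CPM in CTRL 157, 162 and 163. KO 148 and CTRL 162 met at the same rounded value, and the groups overlapped. Its log2 fold change was -0.40 (SE 0.17, edgeR adjusted p = 0.177), and -0.25 without KO 146.

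Slc47a1 (chromosome 11, 61343401 to 61378345, minus strand) had 238, 295 and 369 CPM in KO 146, 147 and 148, against 490, 456 and 463 CPM in CTRL 157, 162 and 163. These values did not overlap, and the log2 fold change was -0.64 (SE 0.17, edgeR adjusted p = 0.0787). Slc22a3, which encodes the cation carrier OCT3, was near the detection limit with 7 to 41 counts per library, so no direction is given. Slc47a2, the paralog of Slc47a1, had 5 to 12 counts and did not meet the count filter.

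**Figure D2:**
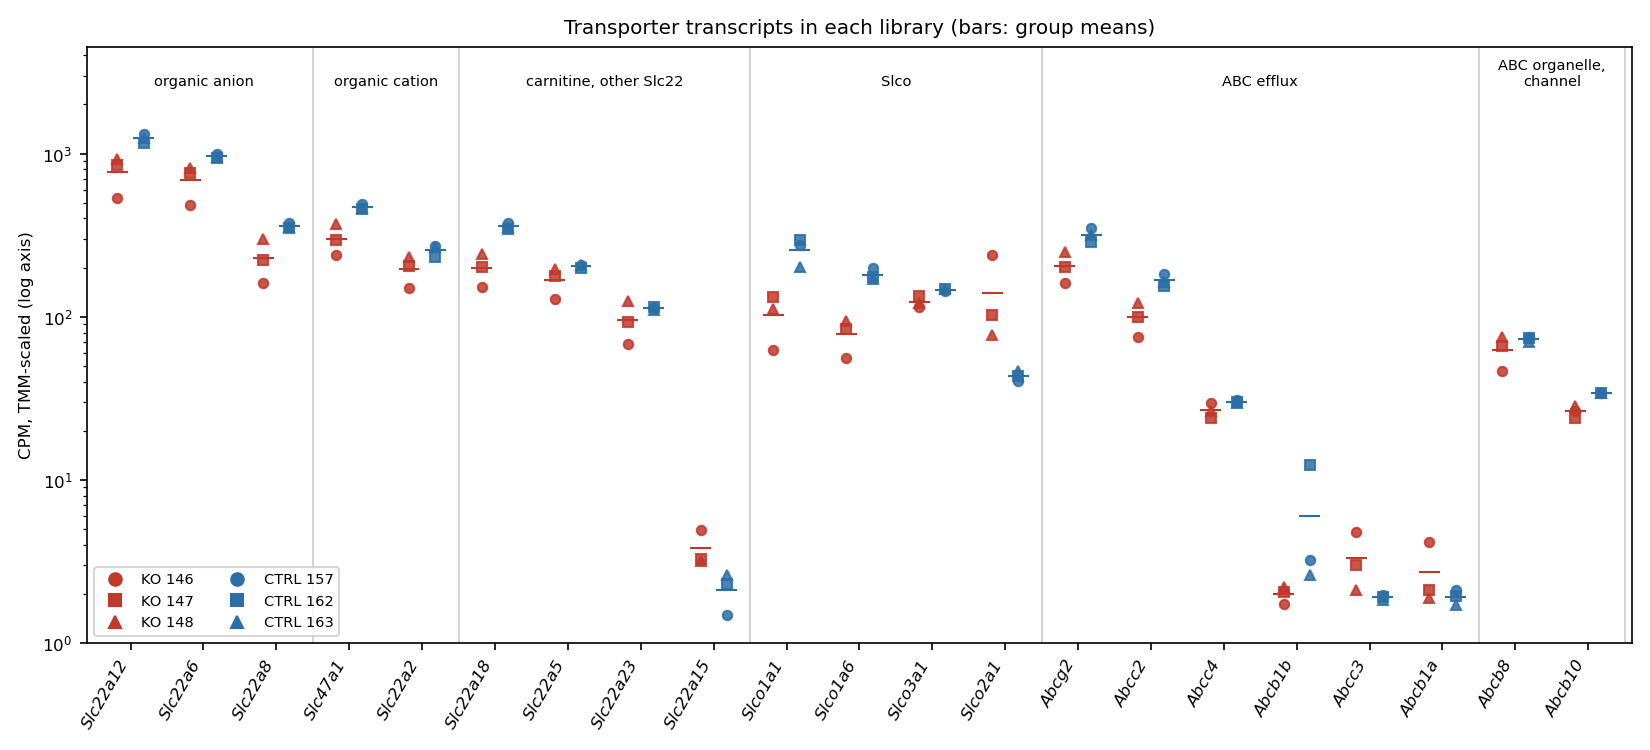
TMM-scaled CPM on a log axis for 21 transporters, 1 point per library, with KO (red) left of CTRL (blue) and bars at the group means. In the anion and cation carriers KO 146 is the lowest library, for example 534 CPM of Slc22a12 and 238 CPM of Slc47a1. Slco2a1 shows the opposite order, with KO 146 highest at 238 CPM.

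Slco1a1 and Slco1a6, neighbouring carriers of amphipathic anions on the minus strand of chromosome 6, had the lowest log2 fold changes among the members above 100 CPM in CTRL. Sequences before the RefSeq start sites of Slco1a6, Slco1a1 and Slc22a18 (GRCm38.p6, gene strand) are shown because, among the carriers named by level or by size of difference, these 3 had the smallest p. Slc22a4, described below with a p between theirs, was outside that choice. Bases that GENCODE places in an exon of the gene are left out, 4 for Slco1a6, 0 for Slco1a1 and 53 for Slc22a18. Capitals mark the only motif match found in them.
Slco1a6, chr6:142186154-142186399, minus strand: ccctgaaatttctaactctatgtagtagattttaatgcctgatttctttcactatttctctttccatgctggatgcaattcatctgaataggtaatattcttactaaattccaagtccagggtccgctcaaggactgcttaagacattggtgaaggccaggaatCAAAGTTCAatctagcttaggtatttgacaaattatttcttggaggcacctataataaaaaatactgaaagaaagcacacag
Slco1a1, chr6:141946963-141947212, minus strand: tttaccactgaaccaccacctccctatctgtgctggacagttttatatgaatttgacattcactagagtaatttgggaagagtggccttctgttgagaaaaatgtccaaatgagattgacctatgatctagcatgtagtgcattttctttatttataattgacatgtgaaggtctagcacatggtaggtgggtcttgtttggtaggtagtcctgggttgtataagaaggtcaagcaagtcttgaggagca
Slc22a18, chr7:143473539-143473735, plus strand: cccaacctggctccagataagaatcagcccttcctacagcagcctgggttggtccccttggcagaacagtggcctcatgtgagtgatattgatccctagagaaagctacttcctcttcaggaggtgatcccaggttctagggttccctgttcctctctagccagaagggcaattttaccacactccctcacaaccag

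Motifs of HNF4, a factor of proximal tubule identity, and of NRF2, a regulator of detoxification genes, were searched on both strands of the 250 bases before each start. Of the 49 members, 38 had an entry, with 46 windows. The HNF4 site CAAAGTCCA was in 0 of these and in 0.38% of all 32851 windows, and the NRF2 element TGACNNNGC was in 5 and in 10.16% of all. The variant HNF4 site CAAAGTTCA was added after the sequences were seen, so its count beside the share of all windows is no test. It was in 3 member windows, those of Slco1a6, Slc22a3 and Abcb1a, and in 0.33% of all, lying 86 to 78 bases before the RefSeq start of Slco1a6. That start lies inside the longer span that GENCODE gives this gene. A match describes the letters and not a bound site.

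Slco1a6 (142085761 to 142208521) had 55.8, 83.9 and 94.7 CPM in KO 146, 147 and 148, against 198, 174 and 170 CPM in CTRL 157, 162 and 163. Every KO value was well below every CTRL value. The log2 fold change was -1.21 (SE 0.20, edgeR adjusted p = 0.0519), the smallest adjusted p among the members. Slco1a1 (141907282 to 141946962) had 62.5, 133 and 111 CPM in KO, against 273, 296 and 200 CPM in CTRL. Here too the groups did not overlap, although both spread more widely than for Slco1a6. Its log2 fold change was -1.33 (SE 0.29, edgeR adjusted p = 0.0753). These paralogs are similar in sequence, so reads shared between them are missing from both counts.

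With the mean of the proximal tubule markers as a covariate, Slco1a6 was the only member that edgeR called, at -0.62 (SE 0.09, adjusted p = 0.0175), where 0.217% of all genes were called lower and 0.708% higher, 0.925% in all. With the endothelial and mesangial mean as a covariate it was again the only member called, at -0.58 (adjusted p = 0.0235), where 0.369% of all genes were called lower and 1.34% higher, 1.71% in all. Over all alternatives its adjusted p ran from 2.75e-06 to 0.246. Both covariates were themselves separated by group, so the covariate and the genotype cannot be fully told apart. Slco1a1 had -0.60 with the first covariate and -0.54 with the second, without a call (edgeR adjusted p = 0.56 and 0.653, range over all alternatives 0.000233 to 0.653).

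Slco2a1, the prostaglandin uptake carrier (chromosome 9, 102988712 to 103096002, plus strand), ran the other way. It had 238, 103 and 77.7 CPM in KO 146, 147 and 148, against 40.3, 43.4 and 46.3 CPM in CTRL 157, 162 and 163. All KO libraries lay above all CTRL libraries, in the order in which the podocyte and the endothelial and mesangial markers stood in KO. The log2 fold change was 1.69 (SE 0.40, edgeR adjusted p = 0.0757). The median was 1.75 for the 19 endothelial and mesangial markers and 2.07 for the 12 podocyte markers. Without KO 146 the value of Slco2a1 was 1.05 and passed the test (edgeR adjusted p = 0.00466). With the endothelial and mesangial mean as a covariate it was 0.14 (edgeR adjusted p = 0.533). With the proximal tubule mean it was 0.25 (edgeR adjusted p = 0.366). Over all alternatives its adjusted p ran from 0.000393 to 0.533.

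The remaining Slco carriers had lower or level values. Slco3a1, a broadly expressed member, had 114, 134 and 122 CPM in KO 146, 147 and 148, against 144, 147 and 148 CPM in CTRL 157, 162 and 163 (log2 fold change -0.25, SE 0.09, edgeR adjusted p = 0.128). Slco4a1, a thyroid hormone carrier, had 7.40, 7.58 and 7.61 CPM in KO, against 11.6, 8.61 and 12.0 CPM in CTRL, with a very narrow spread in KO. Both genes were separated between the groups. Slco4c1, known in rodents as the kidney digoxin carrier, overlapped between the groups, with 1.57 to 2.55 CPM in KO and 2.44 to 4 CPM in CTRL. Slco2b1 had 1.59 to 2.15 CPM in KO and 2.55 to 2.74 CPM in CTRL, without overlap.

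Among the carnitine and other Slc22 carriers, 5 of 8 tested members lay on the negative side in log2, around a median of -0.25 with 0 calls. Slc22a18, an imprinted gene whose upstream sequence is printed above (chromosome 7, 143473736 to 143499334, plus strand), had 153, 200 and 242 CPM in KO 146, 147 and 148, against 373, 347 and 355 CPM in CTRL 157, 162 and 163. The KO libraries all lay below CTRL, and the log2 fold change was -0.85 (SE 0.17, edgeR adjusted p = 0.0729). Slc22a4, Slc22a21 and Slc22a5 form a row on chromosome 11. Slc22a4, which encodes the ergothioneine carrier OCTN1, had 23.9, 30.5 and 32.1 CPM in KO, against 46.5, 48.2 and 47.1 CPM in CTRL (-0.72, SE 0.12, edgeR adjusted p = 0.056). The CTRL values were nearly identical and well above KO. Slc22a5, the carnitine carrier OCTN2, differed less, with 128, 178 and 196 CPM in KO, against 207, 199 and 209 CPM in CTRL (-0.29, SE 0.16, edgeR adjusted p = 0.267). Without KO 146 its value was -0.14. Slc22a21 between them, a carnitine carrier known from mouse, overlapped at 2.40 to 3.15 CPM in KO and 2.14 to 2.63 CPM in CTRL. None of the 3 neighbours was called.

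Slc22a17, the lipocalin receptor, had 25.7, 31.7 and 34.9 CPM in KO 146, 147 and 148, against 38.5, 36.2 and 35.6 CPM in CTRL 157, 162 and 163, narrowly without overlap. Slc22a23 overlapped, with 68.4, 92.3 and 125 CPM in KO and 113, 115 and 109 CPM in CTRL. Within KO it spread from the lowest to the highest of all 6 libraries. Slc22a15 was higher, with 4.95, 3.26 and 3.19 CPM in KO, against 1.49, 2.28 and 2.6 CPM in CTRL, without overlap (log2 fold change 0.84, SE 0.28, edgeR adjusted p = 0.111). Its value was 0.20 with the proximal tubule mean as a covariate (edgeR adjusted p = 0.811). With the endothelial and mesangial mean it was 0.21 (edgeR adjusted p = 0.800).

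**Figure D3:**
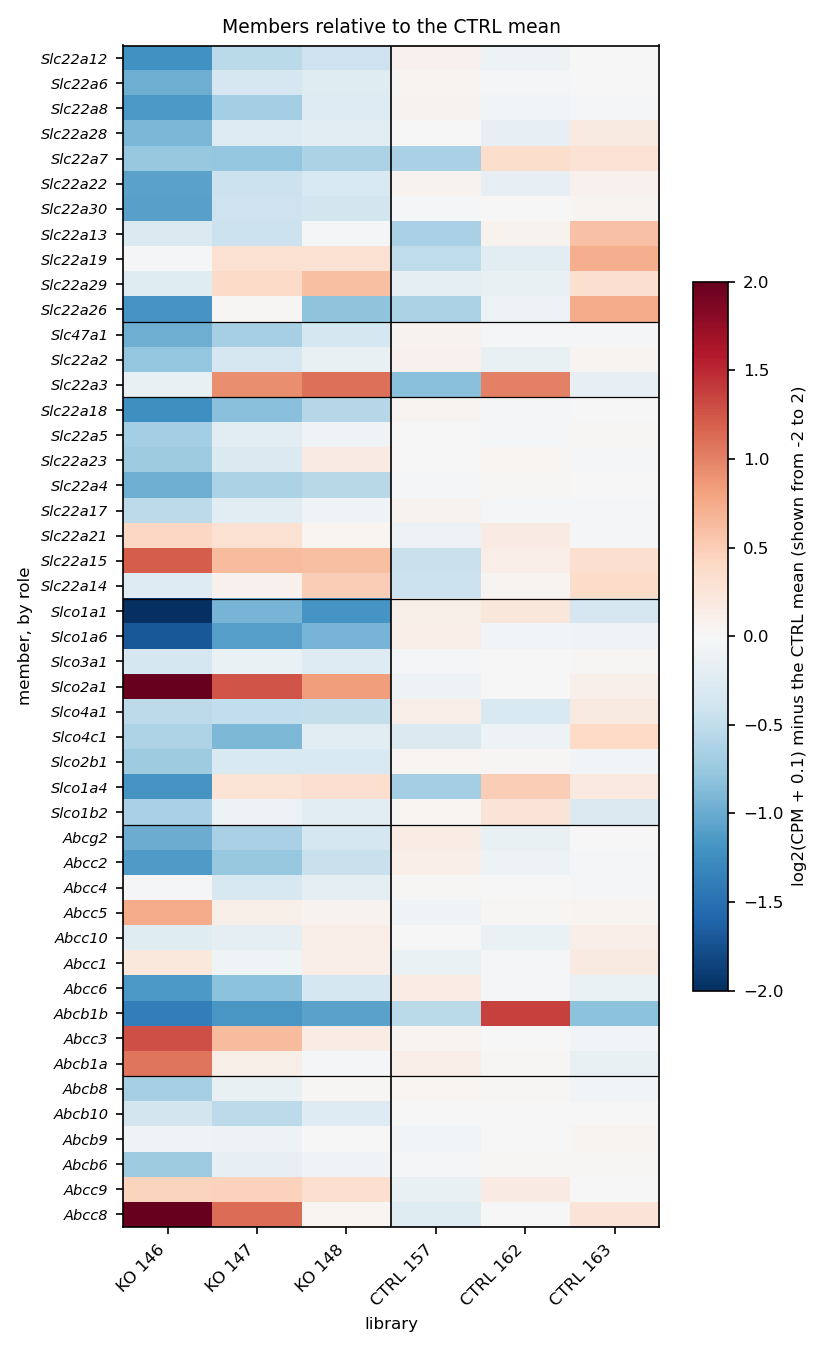
Colours give log2(CPM + 0.1) minus the CTRL mean for 47 members (rows, by role) in the 6 libraries (columns). Blue is deepest in KO 146 for most Slc22a, Slco1a and apical Abc members. Slco2a1, Abcc3 and Abcb1a are red in KO 146, and Abcb1b is red in CTRL 162 alone.

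Of 10 plasma membrane pumps tested, 6 were negative and 4 positive, with a median of -0.14 and 0 calls. Abcg2, the urate and drug pump BCRP (chromosome 6, 58584523 to 58695676, plus strand), had 160, 202 and 250 CPM in KO 146, 147 and 148, against 351, 288 and 318 CPM in CTRL 157, 162 and 163. Abcc2, which encodes MRP2 (chromosome 19, 43782192 to 43840740, plus strand), had 75.6, 99.0 and 122 CPM in KO, against 183, 155 and 163 CPM in CTRL. Both were separated, with log2 fold changes of -0.64 (SE 0.18) and -0.76 (SE 0.18) and edgeR adjusted p = 0.0817 and 0.0755. Abcc4, the apical anion and cyclic nucleotide pump MRP4, differed much less, with 29.5, 24.0 and 26.5 CPM in KO and 30.7, 30.0 and 29.6 CPM in CTRL (-0.17, SE 0.09, edgeR adjusted p = 0.265). Its value was -0.26 without KO 146 (edgeR adjusted p = 0.0404) and -0.11 without KO 147. Abcc6, known for its part in preventing tissue calcification, had 4.52, 5.67 and 7.88 CPM in KO, against 11.3, 9.95 and 9.24 CPM in CTRL (-0.75, SE 0.22, edgeR adjusted p = 0.0871). It too was without overlap.

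Pumps with positive values followed KO 146. Abcc5, a cyclic nucleotide pump, had 39.1, 25.2 and 24.4 CPM in KO 146, 147 and 148, against 22.1, 23.6 and 24.0 CPM in CTRL 157, 162 and 163 (log2 fold change 0.35, SE 0.19, edgeR adjusted p = 0.264). Abcc3, a basolateral conjugate pump, had 4.80, 3.02 and 2.11 CPM in KO and 1.98, 1.92 and 1.83 CPM in CTRL (0.80, SE 0.31, edgeR adjusted p = 0.144). In both the KO values lay above CTRL, with KO 146 highest. Without KO 146 the values were 0.09 for Abcc5 and 0.42 for Abcc3. The ubiquitous pumps Abcc1 and Abcc10 overlapped, at 26.0 to 31.9 and 11.7 to 15.2 CPM in KO against 25.1 to 31.1 and 12.6 to 15.2 CPM in CTRL.

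The pair Abcb1a and Abcb1b encodes the mouse forms of P-glycoprotein, the multidrug pump, and lies on chromosome 5 with 49571 bases between the genes. Abcb1a had 4.13, 2.10 and 1.89 CPM in KO 146, 147 and 148, against 2.11, 1.94 and 1.72 CPM in CTRL 157, 162 and 163. It was highest in KO 146 and alike in the other 5 libraries, and its log2 fold change of 0.50 (SE 0.33, edgeR adjusted p = 0.342) was 0.04 without that library. Abcb1b had 1.75, 2.05 and 2.20 CPM in KO, against 3.21, 12.3 and 2.62 CPM in CTRL. CTRL 162 stood far above every other library, with 469 counts where the others had 85 to 138. Its log2 fold change was -1.59 (SE 0.60, edgeR adjusted p = 0.142), and -0.55 without that library. The paralogs are alike in sequence, and reads that align to both are missing.

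Among transporters of organelles and channel subunits, 5 of 7 lay on the negative side, around a median of -0.23 with 0 calls. Abcb8 and Abcb10 act in mitochondria, in potassium transport and heme synthesis. Abcb10 had 26.4, 23.8 and 28.6 CPM in KO 146, 147 and 148, against 34.0, 34.1 and 34.3 CPM in CTRL 157, 162 and 163 (log2 fold change -0.38, SE 0.09, edgeR adjusted p = 0.0755). The groups did not overlap, and the CTRL values were within 1 CPM of each other. Abcb8 overlapped, with 46.4 to 74.7 CPM in KO and 70.4 to 75.1 CPM in CTRL. Abcb9, the lysosomal peptide transporter, had 11.5 to 12.3 CPM in KO and 11.9 to 12.8 CPM in CTRL. Abcb6 had 7.29 to 11.5 CPM in KO and 11.6 to 12.2 CPM in CTRL.

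Abcc9 and Abcc8 are regulatory subunits of potassium channels and move no drug. Abcc9, expressed in vascular smooth muscle, had 6.61, 6.66 and 6.12 CPM in KO 146, 147 and 148, against 4.32, 5.38 and 4.79 CPM in CTRL 157, 162 and 163, without overlap (log2 fold change 0.42, SE 0.14, edgeR adjusted p = 0.107). Abcc8 had 1.44, 0.579 and 0.220 CPM in KO and 0.163, 0.210 and 0.271 CPM in CTRL. Only KO 146 and KO 147 exceeded CTRL, from 85 and 24 counts. Its log2 fold change of 1.81 (SE 0.69, edgeR adjusted p = 0.145) was 0.86 without KO 146.

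Each log2 level was next set against the level of proximal tubule markers. It was taken minus the mean log2 CPM of the 21 proximal tubule markers in its own library. The log2 fold changes of these markers ran from -1.02 to -0.14. A list of 4 markers of the S3 part of that tubule ran from -0.97 to -0.08. A single mean does not remove such differences among tubule genes. Slc22a6 then had 0.12, 0.20 and 0.16 in KO 146, 147 and 148, against 0.11, 0.14 and 0.16 in CTRL 157, 162 and 163, a mean difference of 0.02 in log2. Here the groups overlapped, and KO 146 no longer stood apart. Slco1a6 kept a gap, at -3.01, -2.97 and -2.94 in KO, against -2.22, -2.29 and -2.32 in CTRL, a difference of -0.70. Slco1a1 had -2.84, -2.31 and -2.71 in KO, against -1.75, -1.53 and -2.09 in CTRL, a difference of -0.83. Slc22a18 had -1.56, -1.72 and -1.59 in KO, against -1.30, -1.30 and -1.26 in CTRL, a difference of -0.33.

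On this scale 6 members (12.2%) lay lower in all KO than in all CTRL libraries, against 1.09% of all tested genes, namely Slco1a1, Slco1a6, Slc22a18, Slc22a12, Slc47a1 and Abcc2. The differences were -0.18 for Slc22a12, -0.12 for Slc47a1 and -0.23 for Abcc2. Another 19 (38.8%) lay higher, against 69.1% of all tested genes. The marker mean was lower in KO, so a gene with an equal CPM in both groups has a higher value in KO on this scale. The shares of all tested genes carry that shift and are not an even reference. Of the 21 markers that make up the mean, 2 lay lower in all KO than in all CTRL libraries and 4 lay higher.

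**Figure D4:**
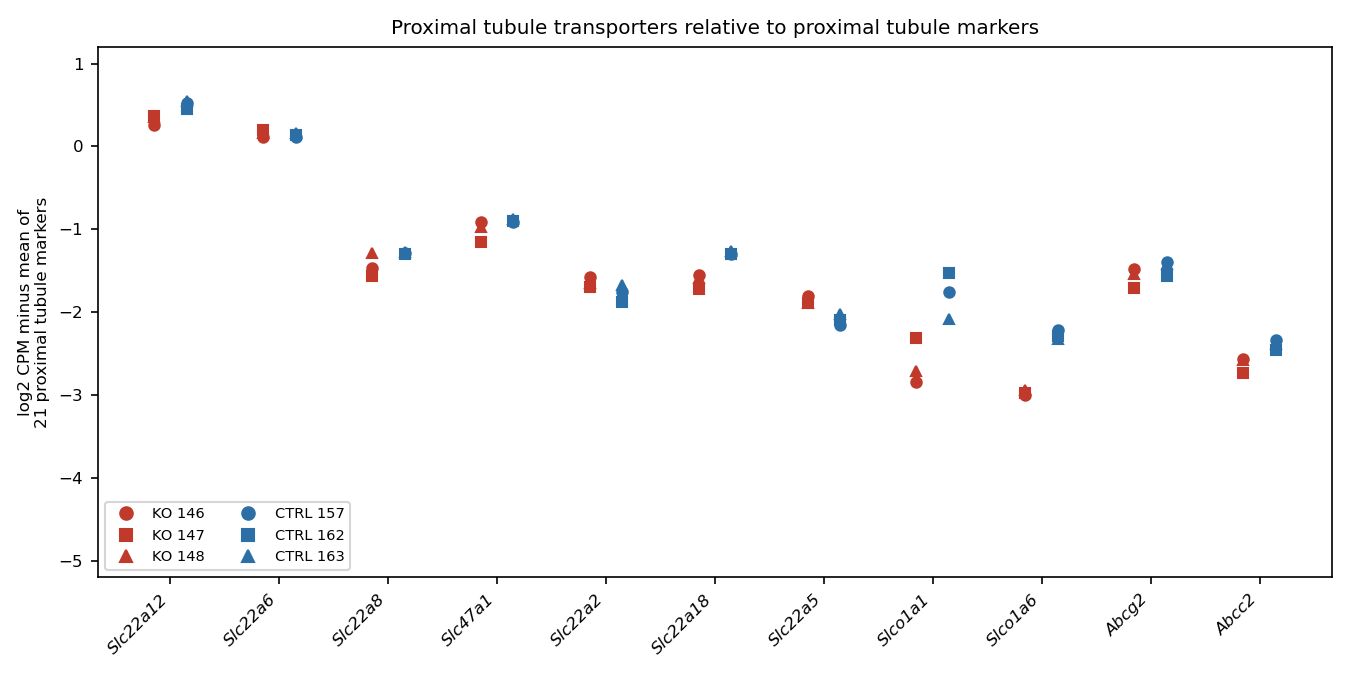
Log2 CPM of 11 transporters minus the mean of 21 proximal tubule markers in the same library, with KO (red) left of CTRL (blue). Slc22a6 overlaps between the groups, while Slco1a6 sits between -3.01 and -2.94 in KO and between -2.32 and -2.22 in CTRL.

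Ratios between members of the same library were compared for 8 pairs by an exact two-sided permutation test over the 6 libraries, for which 0.1 is the smallest p possible. Of these, 7 are given here. The groups did not overlap for 6 of the 7, each with exact p = 0.1 and 0.114 adjusted over the 8 pairs, and so none reached the threshold. No share over other gene pairs was computed. Taken singly, 41.5% of all tested genes were without overlap on CPM, in either direction, so separation of the groups was common here. The urate exchanger against the anion exchanger, Slc22a12 over Slc22a6, had a log2 ratio of 0.13, 0.17 and 0.19 in KO 146, 147 and 148, against 0.41, 0.31 and 0.39 in CTRL 157, 162 and 163. For the exit and entry steps of cation secretion, Slc47a1 over Slc22a2, the log2 ratio was 0.66, 0.54 and 0.67 in KO, against 0.85, 0.98 and 0.79 in CTRL. In both pairs the KO ratios were lower, and KO 146 did not stand out. Abcg2 over Abcc2 averaged 1.05 ± 0.03 in KO and 0.93 ± 0.03 in CTRL (SD, n = 3 each). This difference, 0.12, was small beside the log2 fold changes of both genes.

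Slc22a8 over Slc22a6 averaged -1.60 ± 0.16 in KO and -1.42 ± 0.02 in CTRL (SD, n = 3 each). Abcc4 over Abcc2 had -1.36, -2.04 and -2.20 in KO 146, 147 and 148, against -2.57, -2.36 and -2.46 in CTRL 157, 162 and 163, where KO 146 was farthest from CTRL. Abcb1b over Abcb1a had -1.22, -0.03 and 0.21 in KO, against 0.59, 2.64 and 0.60 in CTRL, and the difference of -1.62 leaned on KO 146 and CTRL 162. Slco1a1 over Slco1a6 overlapped, at 0.17, 0.66 and 0.23 in KO and 0.47, 0.76 and 0.24 in CTRL (exact p = 0.5).

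**Figure D5:**
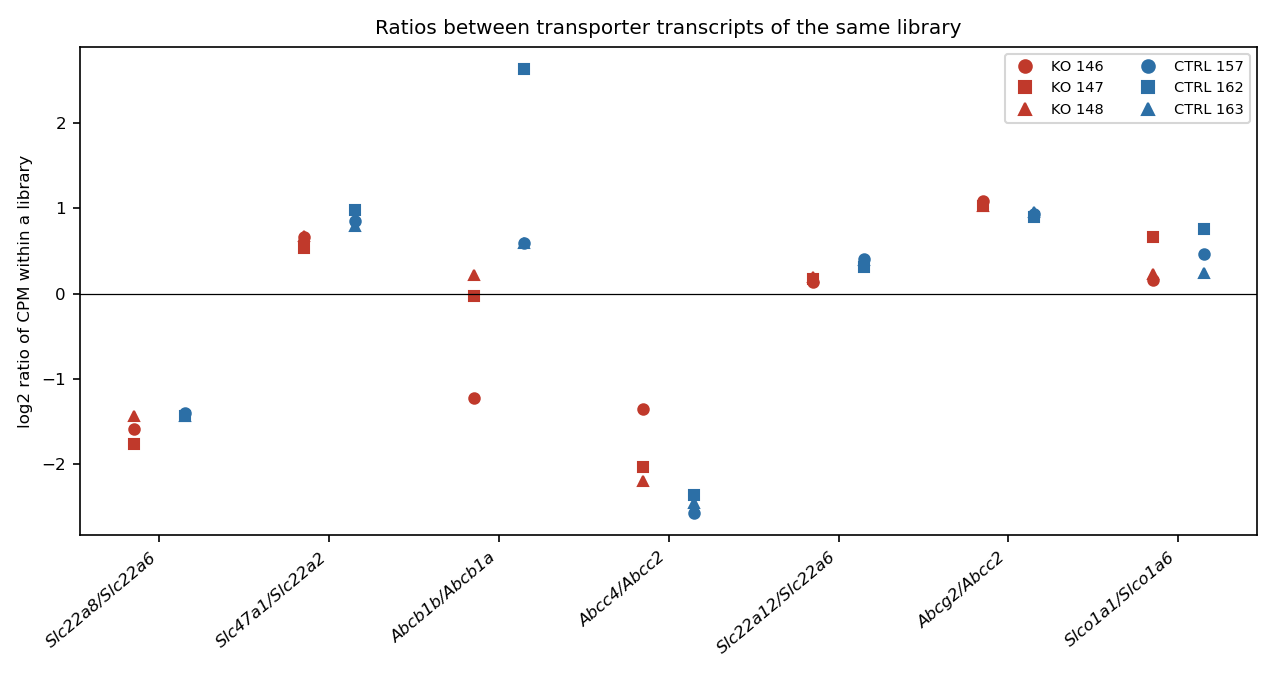
Log2 ratio of CPM of 2 members within each library for 7 pairs, with KO (red) left of CTRL (blue). The groups are apart in 6 pairs and overlap for Slco1a1 over Slco1a6, and the Abcb1b over Abcb1a ratio of CTRL 162, at 2.64, lies above all others.

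Partners of these transporters, 31 tested genes of a list of 32, had 0 calls in edgeR, with 24 negative and 7 positive values and a median of -0.28. At an unadjusted p below 0.05, 6 were lower and 3 higher, against 11.8% and 17.5% of all tested genes. DESeq2 called 4 lower and 3 higher (5.65% and 11.7% of all genes), and limma-voom called 0. Without KO 146 edgeR called 6 lower and 4 higher (6.62% and 10.5% of all genes), and without KO 148 it called 1 lower and 3 higher (5.4% and 12.9%). The transcription factor Hnf4a, which drives proximal tubule genes, had 388, 576 and 574 CPM in KO 146, 147 and 148, against 811, 693 and 745 CPM in CTRL 157, 162 and 163 (log2 fold change -0.55, edgeR adjusted p = 0.106). The scaffold gene Pdzk1, whose product anchors apical carriers such as the urate exchanger, had 397, 524 and 585 CPM in KO, against 762, 621 and 624 CPM in CTRL (-0.41, edgeR adjusted p = 0.171). All KO values of both genes lay below all CTRL values, as for 14 of the 31 partners and 19.6% of all tested genes. In 3 partners all KO values lay above CTRL, which held for 21.9% of all tested genes. Among them, named after their values were seen, the scaffold gene Slc9a3r2 had 425, 177 and 106 CPM in KO, against 68.0, 62.5 and 72.1 CPM in CTRL (1.81, edgeR adjusted p = 0.0799). The others were the xenobiotic receptor gene Ahr (0.80) and the nucleoside carrier gene Slc29a1 (0.71). All 3 were without a call over the 6 libraries in edgeR, and were the 3 that DESeq2, and edgeR without KO 148, called higher.

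Of the 62 matching genes, 13 did not meet the count filter. Most had at most 4 counts in each library, among them Abcb11, Abcb5, Abcc12, Slc22a16 and Slc22a20. Abcb4 and Slc47a2 reached 10 counts in 2 libraries each, Slco1c1 reached 12 counts in KO 146, and Slc22a27 had at most 9. Slco6c1 had 0 counts in all 6 libraries, which allows a level of up to 0.0578 to 0.0753 CPM per library, for counting error alone. Just inside the filter stood Slco1b2 with 8 to 13 counts and Slc22a14 with 6 to 16.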

How the data were processed

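The deposited values were unnormalized read counts per Ensembl gene, in 1 file for each library. Per the submitters' processing notes the authors used HTSeq 0.11.1, STAR 2.6.0, fastp 0.19.5 and DESeq2, with no role given for each. These notes name the build GRCh37, a human assembly, whereas the identifiers are mouse Ensembl ones, so the alignment build is uncertain. Strand setting and annotation release are not stated, and antisense overlap cannot be resolved. The 5 summary lines of each file were left out, and the line for reads aligned to more than 1 place held 22.51% to 29.63% of records. Names and positions came from GENCODE M21 on GRCm38 (54809 of 54838 identifiers named). Upstream sequences came from RefSeq.

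Counts were tested with edgeR 4.0.16 in R 4.3.3, by robust quasi-likelihood F test of KO against CTRL with no covariate, TMM scaling, filterByExpr with a minimum count of 10, and Benjamini-Hochberg adjustment over all tested genes. Log2 CPM used a prior count of 2, and FPKM were computed from CPM and exon lengths. Standard errors are the log2 fold change over the square root of F. The alternatives included DESeq2 1.42.0 and limma 3.58.1. The procedure was tested on simulated data. Replicate pairs differed by a chi-square per degree of freedom of 16.7 or more, so no library was taken as a copy of another. The edgeR p-values weigh each group difference against the variation among these 3 mice per group, with dispersions moderated over all genes. Genes named in full were called members, the 3 with the highest FPKM in each of 6 roles, the 4 highest and 4 lowest log2 fold changes at a mean of at least 1 CPM, and ratio pairs. Others were added after their values were seen, to describe the set whole. Members and lists were chosen with earlier results of these data known. Some members, a ratio pair, a partner gene and some motif searches are not reported here, though the genes entered the fits and counts.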

Additional observations from a re-analysis of the deposited data

How the results depend on the processing

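The number of genes called over all tested genes was 173 with TMM scaling, 960 with no filter on low counts, 2959 with DESeq2 and 292 with the endothelial and mesangial covariate. Leaving out 1 library gave 2 to 3211 genes, 0 to 3 members higher, 0 to 17 members lower, 0 to 10 partners, and a member median between -0.47 and -0.26. Members called lower numbered 1 with size factors of the DESeq2 kind in edgeR, 2 with library totals, 8 with no filter, 16 with DESeq2, and 1 with either covariate. Members called higher numbered 3 with DESeq2. Partners called numbered 1 with no filter, 7 with DESeq2 and 1 with the endothelial and mesangial covariate. The member median was -0.19 with library totals, which moved the median of all genes to 0.13, and -0.0661 and -0.0375 with the proximal tubule and the endothelial and mesangial covariates.

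With the proximal tubule covariate the sign turned for 19 of the 49 members and with the endothelial and mesangial covariate for 21. Among the 21 named by rule it turned with the proximal tubule covariate for Abcb8 (0.28), Slc22a23 (0.34), Slc22a5 (0.17), Slc22a6 (0.0799), Slc22a2 (0.0818), Abcb1a (-0.48) and Abcc3 (-0.12). With the other covariate it turned, among those named by rule, for the same 7 genes, at 0.33, 0.42, 0.21, 0.12, 0.11, -0.57 and -0.23, and for Slc22a8 (0.0132). The cause was not tested. Over the 21 named members, each with 14 alternatives, 234 values kept direction and side of the threshold, 45 kept direction and gained a call, and 15 turned sign. Prior counts of 0.5 and 5 changed the direction of no ratio. Leaving out 1 library, chosen after seeing the data, turned Slco1a1 over Slco1a6, whose difference then ran between -0.2896 and 0.0025. No paired analysis was possible because the groups share no animal numbers. No direction is given for members with few counts, such as Slc22a3 and Slco1b2.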
